A study of Mus musculus with 10 samples.

Results

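The nuclear-encoded oxidative phosphorylation genes are the part of the respiratory machinery that is transcribed in the nucleus and imported into mitochondria as protein. They were chosen by symbol alone. A member is a protein-coding gene of the GENCODE vM21 annotation whose symbol begins with Ndufa, Ndufb, Ndufc, Ndufs or Ndufv, is one of Sdha, Sdhb, Sdhc and Sdhd, or begins with Uqcr, Cox followed by a digit from 4 to 8, or Atp5. This gave 94 members among 22028 protein-coding genes and 55536 genes in the count tables. They carry 93 different symbols, since Atp5o has 2 gene identifiers. Complex I, the NADH dehydrogenase, holds 44 of them, complex II 4, complex III 8, complex IV 18 and complex V, the ATP synthase, 18. Ndufa4 and its paralogue Ndufa4l2 were kept apart as a pair, because the Ndufa4 protein, in spite of its name, belongs to complex IV. By role, 20 members are core subunits, 56 accessory subunits, 10 assembly factors and 8 isoforms known from restricted tissues.

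Oxidative phosphorylation passes electrons from NADH and succinate through complexes I to IV to oxygen, and complex V uses the proton gradient that this builds to make ATP. Core subunits carry the redox centres, the catalytic sites and the proton path, accessory subunits stabilise the complexes, and assembly factors help to build them without staying in the final enzyme. Most subunits come from the nucleus and the remainder from mitochondrial DNA, so their supply has to be matched between both genomes.

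The members were measured in bladder RNA of C57BL/6 mice, by poly(A)-selected RNA sequencing of 4 wild-type (WT), 3 OMD-/- and 3 PRELP-/- libraries. OMD (osteomodulin) and PRELP are secreted small leucine-rich proteoglycans, and the study asked what their loss does to gene expression in the bladder. Both knockouts are constitutive alleles that target exons 2 and 3 and carry the β-galactosidase gene under the promoter of the deleted gene. The deposited label of the second genotype is spelled PRLEP-/-, and the labels give neither age nor sex. The labels name homogenised bladder tissue, whereas the study speaks of isolated bladder epithelia. The group sizes here are those of the labels, and the study gives other ones for WT and OMD-/-. The labels do not say outright that each library came from a separate mouse, so the p-values measure the spread between these libraries.

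Total counts ran from 20391437 to 46269079 per library. In counts-per-million (CPM), Prelp lay at 213 to 316 in the WT libraries, at 782 to 829 where OMD was deleted and at 1.86 to 4.09 where PRELP was. Omd was barely seen, with 12 counts at most in WT, 0 in each OMD-/- library and 7 at most in PRELP-/-, so the OMD-/- label could hardly be checked by its own gene. Urothelial markers were abundant in every library. PRELP-/- replicate 1 stood apart from the other 9 libraries, and the values that rest on it are given with and without it. Counts on the Y chromosome were 211 and 179 CPM in WT replicates 1 and 2 and 1.60 and 1.18 CPM in WT replicates 3 and 4. The knockouts lay between these levels or at the lower one (0.903 to 98.2 CPM), and the part of this difference in the results was not tested beyond the fits that carry it as a covariate.

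The 94 members together took 182433 to 398973 counts per library. Of them, 53 had more than 1000 counts in every library and 90 rose above 3 counts in at least 1, where 3 counts equal 0.0648 to 0.147 CPM depending on the library. Cox7b2, Cox8c and the Atp5o identifier ENSMUSG00000116933 had 0 counts in all 10 libraries, and Cox6a2 and Cox8b were too low to be tested. The remaining 89 members passed edgeR's filter on low counts and were tested in every comparison. The 13 oxidative phosphorylation genes of mitochondrial DNA could not be set beside them. All 37 genes of the mitochondrial chromosome had 0 counts in each library, which says how these tables were made and nothing of their expression.

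Per length, in transcripts-per-million (TPM), the highest members were Cox8a with 1159 over all libraries, Atp5a1 with 1092, Uqcr10 with 806, Cox4i1 with 773 and Cox6b1 with 703. Cox8a, Cox4i1 and Cox6b1 are subunits of cytochrome c oxidase, Atp5a1 is the α subunit in the catalytic head of ATP synthase, and Uqcr10 is a small subunit of complex III. At the other end of the tested members stood Ndufb2 with a mean of 4.58 TPM, Cox7a1 with 6.52 and the complex I assembly factors Ndufaf6, Ndufaf4 and Ndufaf2 with 8.69, 8.90 and 9.45. The lengths behind TPM join all annotated exons of a gene, which lowers the value of genes with long annotated variants such as Ndufb2. Without length, Ndufb2 had a mean of 8.44 CPM. It shares 145 bases with Gm42420 on its own strand and 146 with Braf (147 CPM) on the other, and their part in its level was not tested.

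Summed over members, the WT libraries held 17245 to 18008 TPM, which was 17732 ± 352 (SD, n = 4). OMD-/- held 16906 ± 1162 (SD, n = 3), and PRELP-/- held 20184 ± 4867 (SD, n = 3). The PRELP-/- mean came from 25802 TPM in replicate 1 beside 17491 and 17260 in replicates 2 and 3, which lie within the range of WT. In CPM on scaled library sizes, without length, the WT libraries summed to 8239 ± 347, those of OMD-/- to 9253 ± 1263 and those of PRELP-/- to 12705 ± 5502. The mean of OMD-/- was therefore above WT in CPM and below it in TPM. It was below WT too in CPM of plain library totals (8907 against 9039). The ranges of OMD-/- and WT overlapped on each of these scales.

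Of what the members share beyond their symbols, the promoters were read. RefSeq gave windows from 250 bases before to 50 bases after the annotated start, on build GRCm38.p6, for 76 of the 94 members. The core GCGCATGC, bound by nuclear respiratory factor 1 (Nrf1), stood on either strand in 12 of these 76 (15.8%), beside 3.94% of 17492 protein-coding genes and 3.05% of all 27025 genes with a window. The core CCGGAAG, recognised by GA-binding protein (Gabpa) and other factors of the ETS family, stood in 18 (23.7%), beside 12.9% and 9.93%. TATAAA stood in 7 (9.21%), beside 14.8% and 15.7%. These counts describe letters in windows and show neither binding nor a site in use. Stretches of 120 bases are printed below because they belong to members that changed in OMD-/- and hold these letters, in capitals, on one strand or the other. Each runs 5′ to 3′ along its gene.
Ndufaf4, chr4:24897910-24898029, plus strand: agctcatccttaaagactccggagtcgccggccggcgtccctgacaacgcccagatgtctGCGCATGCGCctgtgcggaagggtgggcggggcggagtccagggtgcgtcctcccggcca
Atp5l, chr9:44920873-44920992, minus strand: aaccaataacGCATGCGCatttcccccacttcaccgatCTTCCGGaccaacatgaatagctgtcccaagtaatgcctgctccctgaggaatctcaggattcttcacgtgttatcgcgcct
Atp5h, chr11:115419920-115420039, minus strand: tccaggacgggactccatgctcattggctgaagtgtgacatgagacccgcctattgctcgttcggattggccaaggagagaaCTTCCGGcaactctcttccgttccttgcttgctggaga
In Ndufaf4, an assembly factor of complex I, the 10 capitals hold the Nrf1 core on both strands, overlapping by 6 bases. In Atp5l, subunit g of ATP synthase, the Nrf1 and the Gabpa core both lie on the strand opposite to the gene. Atp5h, subunit d of ATP synthase, has a Gabpa core on that strand and no Nrf1 core in this window. Among the members called in OMD-/- below, windows were at hand for 6 of those that were higher and 4 of those that were lower, and the Nrf1 core stood in 0 and in 2 of them.

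In OMD-/- bladders, 10 of the 89 tested members were higher than in WT and 4 were lower, so 14 members (15.7%) passed the threshold. Over all 16647 genes tested, 29.4% passed, 14.3% being higher and 15.1% lower, and the share of members called was thus under that of the background. Genes were tested by quasi-likelihood in edgeR, with p-values adjusted by Benjamini-Hochberg over the whole table and a threshold of 0.05. With all 10 libraries in one fit 1 member was higher and 1 lower, Ndufa4l2 and Ndufaf4, and all other calls were lost. That fit called 14.7% of all genes. Limma-voom with quality weights called 11 members higher and 15 lower, beside 43.4% of all genes. The median log2 fold change was 0.06 for the members and 0.00 for all genes (lower and upper quartile of the members, -0.09 and 0.20). In 18 members every OMD-/- library lay above every WT library, and in 2 every one lay below. Over all genes those shares were 20.5% and 18.5%. In bulk RNA of a tissue, less RNA of a gene per cell cannot be told apart from fewer cells of the type that holds it.

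**Figure D1:**
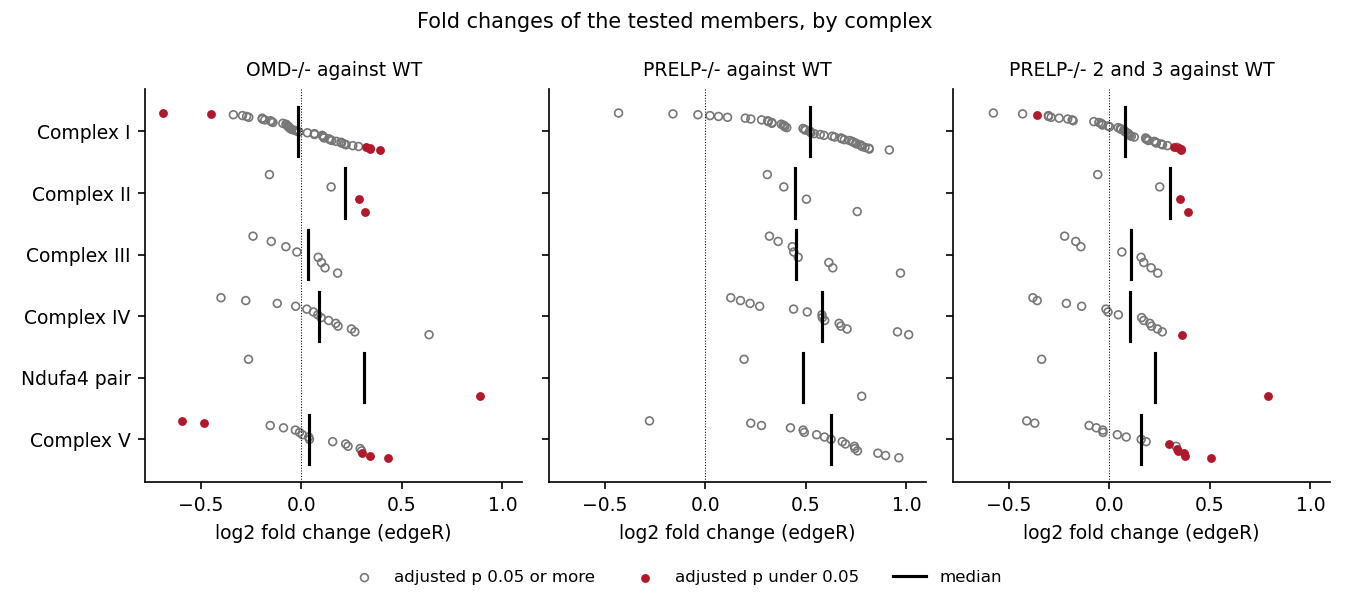
Log2 fold changes from edgeR (x axis) of the 89 tested members, by complex (rows), for OMD-/- against WT, for PRELP-/- against WT, and for PRELP-/- replicates 2 and 3 against WT. Each circle is a gene, filled where the adjusted p was under 0.05, and the black bar is the median of the complex; the medians of the middle panel lie between 0.45 and 0.63 and fall to 0.08 to 0.30 once PRELP-/- replicate 1 is left out.

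By role, 6 of 20 core subunits rose and 0 fell, about the 29.4% called over all genes, with a median log2 fold change of 0.14. Of 55 tested accessory subunits 3 rose and 2 fell, with a median of 0.06. Of 10 assembly factors 0 rose and 2 fell, with a median of -0.19, and of 4 tested isoforms of restricted tissues 1 rose. By complex, 4 rose and 2 fell of 44 in complex I, 2 rose of 4 in complex II, 3 rose and 2 fell of 17 in complex V, and none passed of 8 in complex III and 14 in complex IV. At an unadjusted p under 0.05, 22 of the 89 members passed. All genes were not counted at that threshold, so the 22 are not read as an excess. The difference between roles was not tested.

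Atp5a1 encodes the α subunit of ATP synthase (ENSMUSG00000025428), and it had the smallest adjusted p of the members. Its levels were 873, 893, 844 and 859 CPM in WT and 1326, 1119 and 1115 CPM in OMD-/-. The OMD-/- libraries lay above all of WT, replicate 1 the furthest. The log2 fold change was 0.43 ± 0.09 (SE) with an adjusted p of 0.00424 in edgeR's quasi-likelihood test, and it passed without any 1 of the 7 libraries but not with all 10 libraries in one fit (0.100). Atp5a1 shares 129 bases with Haus1 on the other strand, whose level was low (10.9 CPM).

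Its partner Atp5b, the catalytic β subunit (chr10:128083273-128090391), had 773, 781, 737 and 728 CPM in WT and 1077, 874 and 883 CPM in OMD-/-. Again no OMD-/- library fell into the range of WT. Atp5b rose by 0.30 ± 0.09 on the log2 scale with an adjusted p of 0.0286 by edgeR, and Atp5h rose by 0.34 ± 0.10 with 0.022, from 110 to 131 CPM in WT to 146 to 186 CPM. Atp5b missed the threshold without any 1 of the 4 WT libraries or without OMD-/- replicate 3 (adjusted p 0.0565 to 0.0878), and Atp5h without WT replicate 4 or OMD-/- replicate 1 (0.0596 and 0.0730). The γ subunit Atp5c1, which forms the turning shaft of the enzyme, had 210 to 252 CPM in WT and 225 to 281 CPM in OMD-/- and did not pass (0.04 ± 0.10).

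Succinate dehydrogenase, complex II, is the enzyme that the respiratory chain shares with the citric acid cycle, and all of its subunits are nuclear. Sdha, the flavoprotein that oxidises succinate (chr13:74322254-74350280), had 294, 291, 266 and 280 CPM in WT and 377, 349 and 347 CPM in OMD-/-. The OMD-/- libraries were close to each other and apart from WT. Sdha rose by 0.32 ± 0.08 on the log2 scale with an adjusted p of 0.0103 by edgeR, and no single library was needed for it to pass, but it did not pass with all 10 libraries in one fit (0.0762) or with the replicate block (0.0628). Sdhc, one of the membrane anchors, had 120 to 131 CPM in WT and 142 to 178 CPM in OMD-/-. It rose by 0.28 ± 0.09 with an adjusted p of 0.0333, and it lost the call without each library but OMD-/- replicate 2 (0.0537 to 0.101). The iron-sulfur subunit Sdhb (0.15 ± 0.09) and the other anchor Sdhd (-0.16 ± 0.13) did not pass.

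In complex I, Ndufv1, which binds NADH and flavin, had 112 to 125 CPM in WT and 133 to 174 CPM in OMD-/- (0.32 ± 0.09, adjusted p 0.0256), and it lost the call without WT replicate 1, 3 or 4 or OMD-/- replicate 1 (0.0590 to 0.0770).

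Of the accessory subunits of complex I, Ndufa9 had 60.5 to 68.1 CPM in WT and 80.8 to 93.1 CPM in OMD-/- (0.39 ± 0.08, adjusted p 0.00508 by edgeR). Ndufa10 had 81.4 to 104 CPM in WT and 112 to 132 CPM in OMD-/- (0.34 ± 0.09, adjusted p 0.0189). For both genes the groups did not overlap, and Ndufa9 passed without any 1 library but not with all 10 in one fit (0.217). Ndufa10 did not pass without WT replicate 3 or OMD-/- replicate 1 (0.0613 and 0.0658). Most other core subunits of complex I did not pass. The log2 fold changes of these were -0.04 ± 0.08 in Ndufs1, -0.05 ± 0.10 in Ndufs3, -0.07 ± 0.10 in Ndufs7, 0.14 ± 0.09 in Ndufs8 and -0.07 ± 0.10 in Ndufv2.

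Among the members that fell, Ndufab1 is the mitochondrial acyl carrier protein, which serves fatty acid and lipoic acid synthesis besides its place in complex I (chr7:122085403-122101886). It had 26.4, 25.4, 28.3 and 27.2 CPM in WT and 22.5, 19.1 and 18.3 CPM in OMD-/-. All OMD-/- libraries lay below WT. The log2 fold change was -0.45 ± 0.10 with an adjusted p of 0.00733 by edgeR, and the largest adjusted p without 1 library was 0.0493. It was 0.254 with all 10 libraries in one fit.

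Ndufaf4, whose promoter stretch is printed above, had 12.2, 10.6, 13.6 and 17.5 CPM in WT and 8.35, 8.84 and 8.25 CPM in OMD-/-. The OMD-/- values were tight and below the WT values, which spread widely. The log2 fold change was -0.69 ± 0.18 (adjusted p 0.014 by edgeR, and 0.0587 without OMD-/- replicate 3). Atp5l had 23.9, 17.0, 24.8 and 23.1 CPM in WT and 19.4, 14.04 and 14.9 CPM in OMD-/-, and Atp5s, a factor named for the ATP synthase and counted here with the assembly factors, had 15.2, 9.99, 16.5 and 17.7 against 9.45, 10.5 and 10.04. In both genes WT replicate 2 reached into the range of OMD-/-. Atp5l fell by 0.49 ± 0.16 on the log2 scale (adjusted p 0.0366) and missed the threshold without WT replicate 1, 3 or 4 or OMD-/- replicate 2 or 3 (0.0628 to 0.156). Atp5s fell by 0.59 ± 0.19 (adjusted p 0.0341) and missed it without any library but WT replicate 2 (0.0503 to 0.111).

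**Figure D2:**
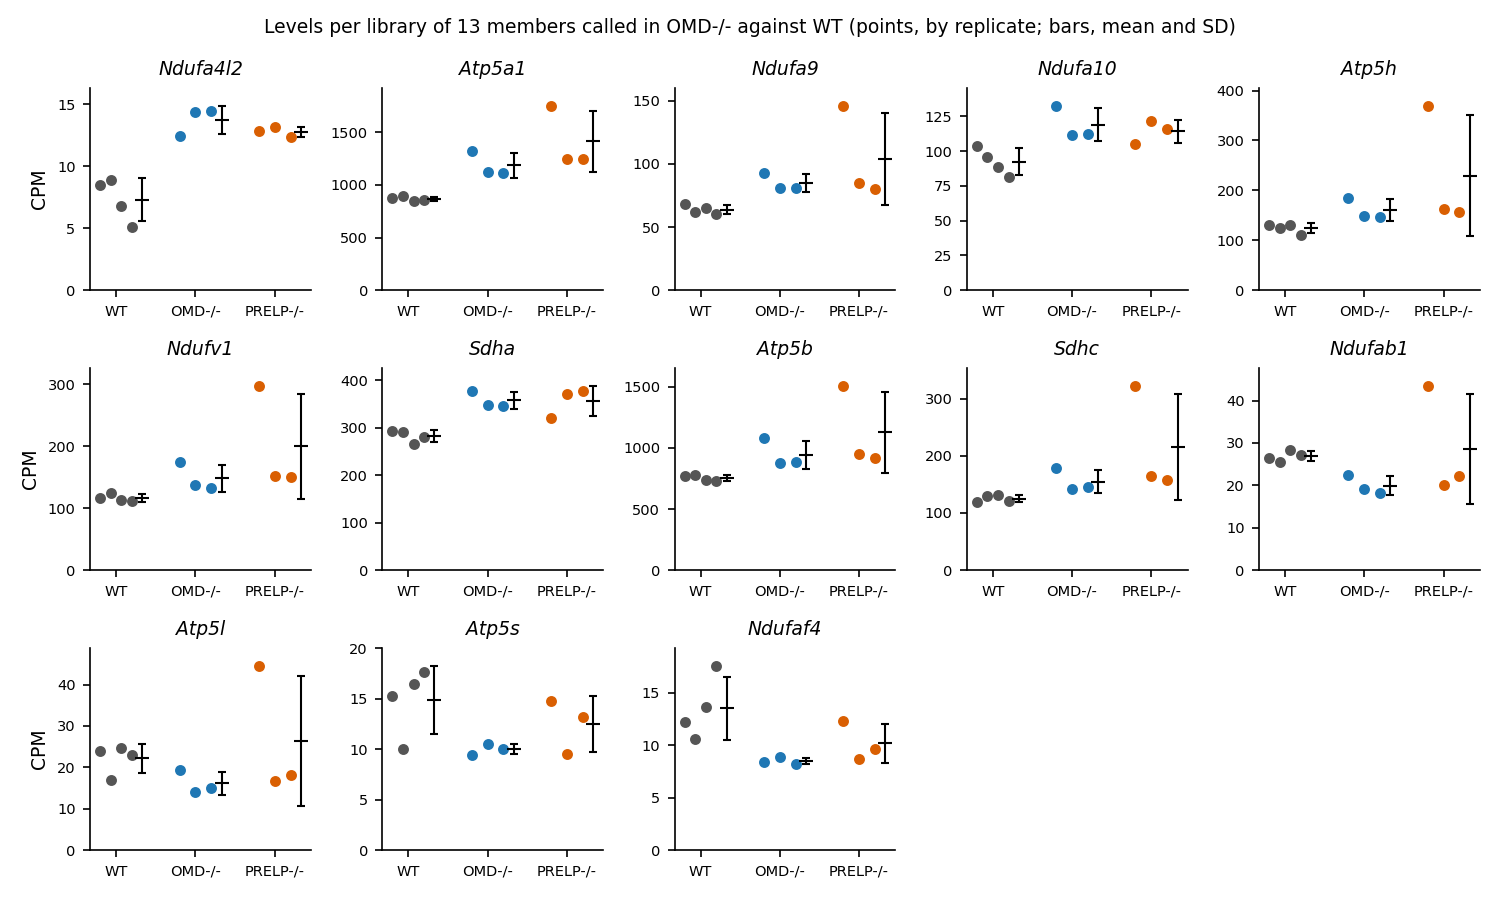
CPM per library (y axes, each from 0) of 13 of the 14 members that passed in OMD-/- against WT, ordered by log2 fold change from Ndufa4l2 to Ndufaf4. Points are replicates in order within WT (n = 4), OMD-/- (n = 3) and PRELP-/- (n = 3), and bars give the mean and SD; PRELP-/- replicate 1 is the highest of all libraries in 8 of the 13 panels, with 1751 CPM for Atp5a1.

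Of complexes III and IV, no member passed in OMD-/-. The Rieske protein Uqcrfs1, the iron-sulfur subunit of complex III, had 60.2 to 77.7 CPM in WT and 71.1 to 84.8 CPM in OMD-/- (log2 fold change 0.12 ± 0.11). Of the cytochrome c oxidase subunits, Cox4i1 (0.18 ± 0.13), Cox5a (0.10 ± 0.11) and Cox5b (0.17 ± 0.10) did not pass. The nearest to the threshold among all members that missed it were Ndufa3, an accessory subunit of complex I, with 0.28 ± 0.10 and an adjusted p of 0.0501 by edgeR, and Atp5d, the δ subunit of ATP synthase, with 0.30 ± 0.10 and 0.0523. Ndufa3 and Atp5d were chosen after their values were seen.

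Ndufa4l2 had the largest fold change of the members in OMD-/-. It encodes a paralogue of Ndufa4 that is known as a hypoxia-induced gene and lies at chr10:127514967-127517154. It had 8.47, 8.90, 6.79 and 5.09 CPM in WT, 12.4, 14.3 and 14.4 CPM in OMD-/-. The PRELP-/- libraries gave 12.8, 13.2 and 12.4 CPM. Each knockout library was above each WT library. The log2 fold change was 0.89 ± 0.18 in OMD-/- with an adjusted p of 0.0048 by edgeR, and it passed under each alternative tried. In PRELP-/- it was 0.78 ± 0.21 with 0.0577, and without PRELP-/- replicate 1 it was 0.79 ± 0.21 with 0.0274. The gene shares 32 bases with Shmt2 on the other strand (97.4 CPM), which was itself higher in OMD-/- (0.33, adjusted p 0.0103), and since the strand setting of the counting is not stated, reads of Shmt2 may be among those of Ndufa4l2. Pericytes are known to express Ndufa4l2, and the summed level of 8 pericyte markers was 1142 to 1224 CPM in WT and 1312 to 1379 CPM in OMD-/-. In PRELP-/- it was 889 CPM in replicate 1, under all of WT, and 1380 and 1440 CPM in replicates 2 and 3. Of the single pericyte markers, 2 passed as higher and 1 as lower in OMD-/-, beside 29.4% of all genes called, and 0 passed in PRELP-/-. The part of pericytes in this result was not tested.

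Ndufa4 itself went its own way among the WT libraries, with 75.5 and 76.4 CPM in replicates 1 and 2 and 120 and 122 CPM in replicates 3 and 4. OMD-/- had 91.6, 79.5 and 79.4 CPM, inside the range of WT, and the gene did not pass (-0.26 ± 0.19). Of the summed TPM of the pair, Ndufa4l2 took 12.4, 12.8, 6.67 and 4.98% in WT and 14.6, 18.5 and 18.7% in OMD-/-. In PRELP-/- it took 8.02, 17.2 and 16.7%. The share in OMD-/- was above WT in every library, and that of PRELP-/- replicate 1 lay within WT.

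**Figure D3:**
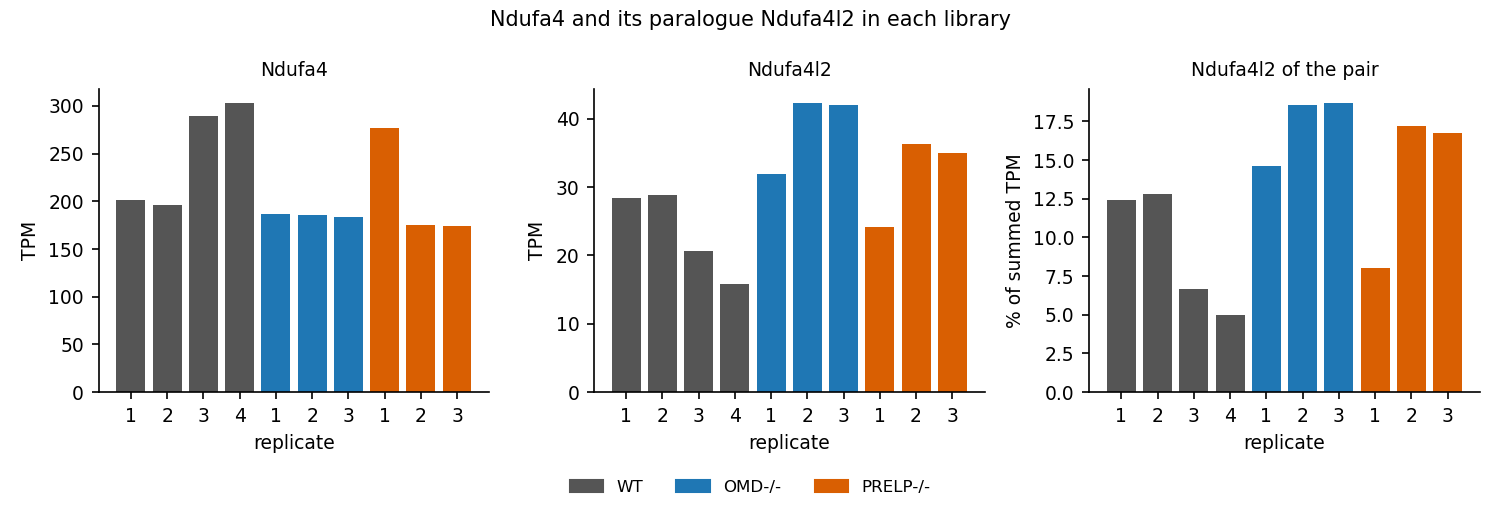
TPM of Ndufa4, TPM of Ndufa4l2 and the share of Ndufa4l2 in the summed TPM of the pair (%), in each of the 10 libraries (bars, by replicate number and coloured by genotype). The share reaches 12.8% at most in WT and 14.6 to 18.7% in OMD-/-.

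In the other pairs the restricted isoform stayed a small part of the whole. Cox4i2, the hypoxia- and lung-associated partner of Cox4i1, made 1.11 to 2.40% of the summed TPM of its pair in WT and 2.15 to 2.70% in OMD-/-. Its level was 1.80 to 3.66 CPM in WT and 4.14 to 5.06 CPM in OMD-/-, with no overlap, but the log2 fold change of 0.63 ± 0.26 did not pass (adjusted p 0.0863 by edgeR). The muscle isoform Cox7a1 made 1.61 to 3.32% of its pair with Cox7a2 and the testis isoform Cox6b2 made 1.14 to 2.42% of its pair with Cox6b1, over all libraries. The muscle isoforms Cox6a2 and Cox8b stayed at or under 0.0844% and 0.221% of their pairs. Of the 3 genes for the ring-forming subunit c of ATP synthase, Atp5g3 gave 57.6% of the TPM in WT, Atp5g2 37.1% and Atp5g1 5.23%. In PRELP-/- replicate 1, Atp5g2 exceeded Atp5g3 with 49.7% against 45.6%, the only library in which it did so.

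In PRELP-/-, none of the 89 members passed the threshold, while 7.29% of 16581 genes did, 1.4% being higher and 5.89% lower. The members still lay largely on one side. Their median log2 fold change was 0.53, against 0.02 for all genes, and it was above 0 in 85 of 89. In 36 members each PRELP-/- library was above each WT library and in 0 each was below, where those shares were 14.5% and 15.8% over all genes. At an unadjusted p under 0.05, 32 members passed, and the smallest adjusted p by edgeR was 0.0537, of Atp5a1. The share of all genes at that unadjusted threshold was not counted, so the 32 are not read as an excess. DESeq2 called 16 of 91 members higher and 0 lower, and 2547 genes in all (8.19%), where edgeR called 1209. It was run without the filter on low counts. Its share therefore also covers barely expressed genes and cannot be set beside the 7.29%, so the 16 are not read as an excess. Limma-voom with quality weights called 19 higher and 9 lower, beside 42.1% of all genes.

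One library carried most of this shift. In PRELP-/- replicate 1, the members had a median log2 difference of 1.20 from the mean of WT, and 87 of 89 lay above it. In replicates 2 and 3 the median was 0.18 and 0.10. The members took 1.60% of all counts in replicate 1, 0.923 and 0.903% in replicates 2 and 3, and 0.855 to 0.952% in WT. The genes on which the counts of replicate 1 fell were also shorter, with a mean exon length of 4454 bases beside 5563 to 5983 in the other 9 libraries. Cytosolic ribosomal protein genes, which are short and highly expressed like many members, had a median log2 difference of 1.80 there, and mitochondrial ribosomal protein genes one of 0.88. With gene length entered as an offset in the fit, the median of the members in PRELP-/- was 0.32. In that fit 5 members passed, all higher, beside 13.5% of all genes. The part of length, of RNA quality or of the makeup of this sample in the shift was not tested further.

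**Figure D4:**
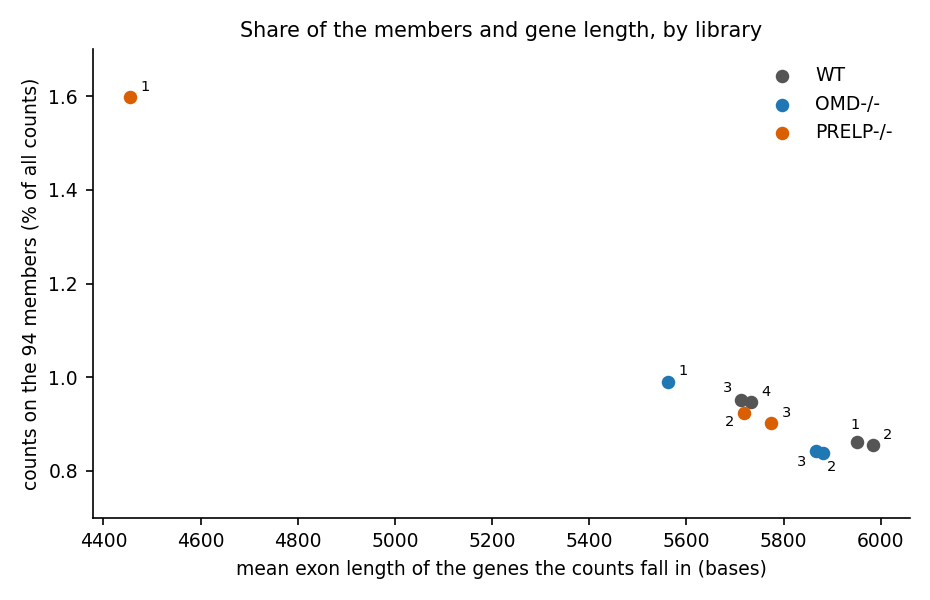
Share of all counts that fell on the 94 members (y axis, %, from 0.7) against the mean exon length of the protein-coding genes that the counts fell in (x axis, bases), one point for each of the 10 libraries, with replicate numbers. PRELP-/- replicate 1 stands alone at 4454 bases and 1.60%, and the other libraries lie between 5563 and 5983 bases and between 0.839 and 0.991%.

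Without PRELP-/- replicate 1, 14 members were higher and 1 was lower than in WT, and 22.2% of 17120 genes passed (10.7% higher and 11.5% lower). The median of the members was then 0.09. Those higher included Atp5a1 (0.51 ± 0.06, adjusted p 0.00155 by edgeR), Sdha, Ndufv1, Cox7a2l, Sdhc, Ndufa9, Atp5b, Atp5d, Atp5h, Ndufa4l2, Atp5g1, Ndufa10 and Atp5o. The one that was lower was Ndufab1 (-0.36 ± 0.10, adjusted p 0.0351). Cox7a2l, a factor that joins respiratory complexes into supercomplexes, Atp5d, Atp5g1 and Atp5o are named here for the call without this library alone. By role, 8 of 20 core subunits, 4 of 55 accessory subunits, 1 of 10 assembly factors and 1 of 4 restricted isoforms were higher. The comparison leaves 2 libraries in the PRELP-/- group and was made because replicate 1 stood apart.

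The values of single members show the weight of replicate 1. Atp5a1 had 1751 CPM there and 1247 and 1246 CPM in replicates 2 and 3, all above the 844 to 893 CPM of WT. Cox4i1, the regulatory subunit IV of cytochrome c oxidase, had 1081 CPM there beside 385 and 349 CPM, and WT had 291 to 327 CPM. Both genes were thus above WT in each PRELP-/- library, at 0.68 ± 0.18 (adjusted p 0.0537 by edgeR) and 0.96 ± 0.37 (adjusted p 0.144). Cox7a2l had 626, 231 and 227 CPM, against 166 to 183 CPM in WT, and the largest log2 fold change of the members, 1.01 ± 0.34 (adjusted p 0.108).

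Some members rose less in this library, or did not rise. Sdha had 320 CPM in replicate 1 beside 372 and 377 CPM in replicates 2 and 3, and Ndufa10 had 105 CPM beside 121 and 116. Both were above WT in replicate 1. Ndufs1, the largest of the iron-sulfur subunits of complex I, had 47.3 CPM in replicate 1, its lowest value of all libraries, beside 57.6 to 65.5 CPM in WT. Ndufs1 and Ndufaf4 lay below the WT mean in replicate 1, with log2 differences of -0.39 and -0.11. Ndufab1 did rise there, to 43.5 CPM beside 20.1 and 22.2 CPM in replicates 2 and 3, with WT in between. Its log2 fold change was 0.07 ± 0.26 with replicate 1.

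**Figure D5:**
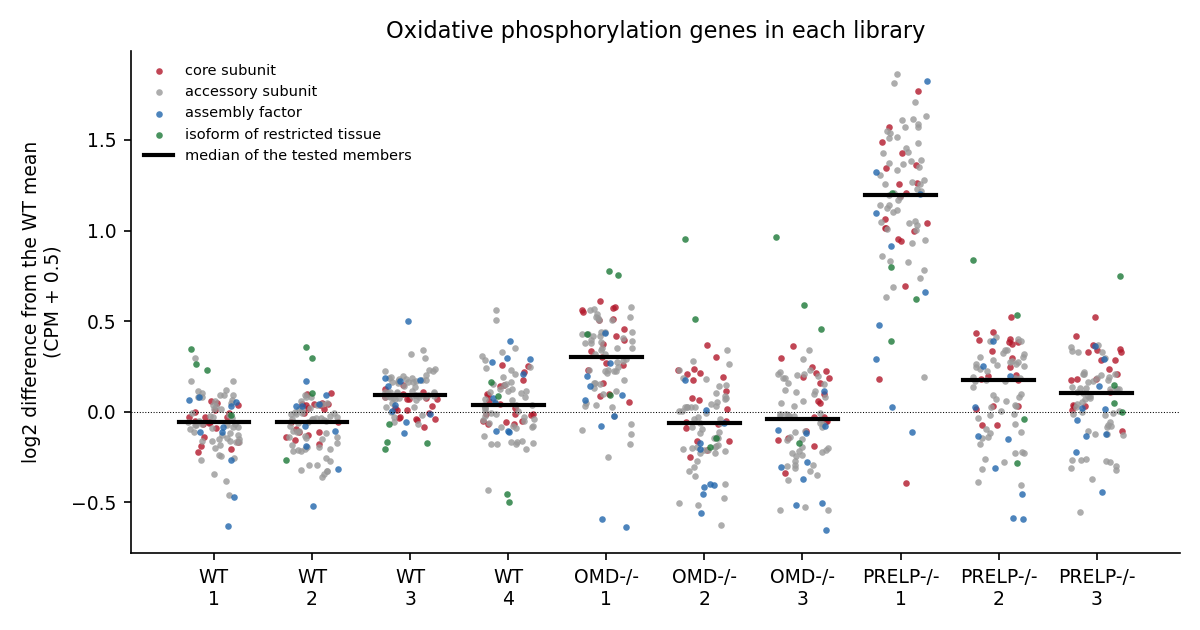
Log2 difference of each of the 89 tested members from the mean of the WT libraries (y axis, log2 of CPM + 0.5), in each of the 10 libraries (x axis), coloured by role. The black bar is the median of the members, which is 1.20 in PRELP-/- replicate 1, 0.30 in OMD-/- replicate 1 and between -0.06 and 0.18 in the other 8 libraries.

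OMD-/- replicate 1 was shifted in the same direction, by less. Its members had a median log2 difference of 0.30 from WT, and OMD-/- replicates 2 and 3 had -0.06 and -0.04. Without it, 6 members were higher and 4 lower in OMD-/-, beside 25.5% of all genes called, and the median fell to -0.05. Core subunits were at 0.39, 0.07 and 0.05 in the 3 OMD-/- libraries, and assembly factors at 0.08, -0.30 and -0.29. Within WT, members differed less, with medians of -0.06, -0.05, 0.09 and 0.04. Individual members still split the WT libraries into replicates 1 and 2 against 3 and 4, as Ndufa4 did. Cox6c, an accessory subunit of complex IV, had 85.4 and 92.6 CPM in the former and 139 and 173 CPM in the latter, and Ndufc2 of complex I had 42.0, 43.7, 62.9 and 78.2 CPM. These 2 genes were chosen after their values were seen. The smooth muscle markers split the same libraries, with 540 to 559 CPM summed over 12 markers in WT replicates 1 and 2 and 1568 to 1721 CPM in 3 and 4. Skeletal and cardiac muscle markers split them the same way at far lower levels. Endothelial markers split them the other way, with 415 and 431 CPM against 199 and 185 CPM. The Y chromosome counts given above also divide WT there, and the part of each of these was not tested.

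With WT replicates 1 and 2 alone as the reference, 7 members were higher and 2 lower in OMD-/-, beside 26.3% of all genes called. With WT replicates 3 and 4 alone, 12 were higher and 12 lower, beside 39.8% of all genes called. Both fits were added after seeing the data.

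The knockouts were also compared with each other, which needs no WT library. None of the 89 members passed, and 0.00633% of 15805 genes did, 1 gene in all. No member had an unadjusted p under 0.05, DESeq2 called 0 and limma-voom with quality weights called 2, both higher in PRELP-/-. DESeq2, run without the filter on low counts, called 0.304% of all genes there and limma-voom 6.4%. The median log2 fold change of PRELP-/- over OMD-/- was 0.51, but it was 0.03 without PRELP-/- replicate 1 and -0.28 with the Y chromosome level as a covariate. With the replicate number as a block, 43 genes passed and again 0 members, with a median of 0.40. At this spread a difference of the members between the knockouts was not detectable, and it is not shown to be absent.

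The surroundings of the pathway were looked at through lists of genes, whose counts in OMD-/- are to be read against the 29.4% of all genes that passed there. The share called was 72.2% in glycolysis and under 29.4% in each of the other pathway lists. Of 40 tested partners outside the symbols, such as cytochrome c and the assembly factors of complexes II to IV, 0 rose and 2 fell in OMD-/-. Cox17, the copper chaperone of cytochrome c oxidase, had 6.62 to 7.72 CPM in WT and 0.896 to 1.60 CPM in OMD-/- (log2 fold change -2.54 ± 0.22, adjusted p 3.55e-05 by edgeR). In PRELP-/- it was -3.17 ± 0.21 (adjusted p 0.00012), with means of 7.18 CPM in WT and 0.804 CPM in PRELP-/-. Cox17 passed in both comparisons without any 1 library. Ttc19, which clears fragments of the Rieske protein from complex III, fell by 0.35 ± 0.10 on the log2 scale (adjusted p 0.0231), a call lost without WT replicate 3 or any 1 OMD-/- library (0.0548 to 0.0726).

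Of 21 tested regulators of mitochondrial biogenesis, 1 rose and 5 fell in OMD-/- (28.6%, beside 29.4% of all genes), and 0 passed in PRELP-/-. Without PRELP-/- replicate 1, 1 rose and 2 fell (14.3%, beside 22.2% of all genes). Esrra, the estrogen-related receptor that activates many respiratory genes, changed by -0.62 ± 0.11 in OMD-/- (adjusted p 0.00271 by edgeR). The mitochondrial deacetylase Sirt3 changed by -0.64 ± 0.14 (adjusted p 0.00604), and Mterf1a by -0.88 ± 0.30 (0.0481, lost without any 1 library, at 0.0527 to 0.172). Esrra and Sirt3 each passed under 18 of 19 alternatives. Of 77 mitochondrial ribosomal protein genes 0 rose and 3 fell in OMD-/-, with a median of -0.05, and Mrpl33 was the furthest at -0.73 ± 0.14 (adjusted p 0.00349). Mrpl33 passed under 18 of 19 alternatives. Of 77 cytosolic ribosomal protein genes 10 rose and 1 fell, with a median of 0.12. In PRELP-/- neither ribosomal list had a call, with medians of 0.33 for the mitochondrial and 0.95 for the cytosolic genes. Without PRELP-/- replicate 1, 1 of 77 mitochondrial ones rose and 1 fell, with a median of -0.009. Of 78 cytosolic ones 36 rose and 1 fell (47.4%), with a median of 0.25, beside 22.2% of all genes.

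Among the pathways that feed the chain, glycolysis moved most. Of its 18 genes 13 rose and 0 fell in OMD-/- with a median of 0.42. In PRELP-/- 3 rose (16.7%) with a median of 0.34, beside 7.29% of all genes called and 1.4% higher. Eno1, Aldoa and Gapdh, enzymes of the lower and middle pathway, led in OMD-/- with 0.66 ± 0.09, 0.55 ± 0.09 and 0.54 ± 0.11 (adjusted p 0.000541, 0.00157 and 0.00382 by edgeR). Eno1 and Aldoa passed there under all of 19 alternatives, and Gapdh under 18. In PRELP-/- those called were Gapdh (0.88 ± 0.19), Gpi1 (0.72 ± 0.18) and Eno1 (0.56 ± 0.13), with adjusted p of 0.0284, 0.0435 and 0.0366. Each of these 3 calls was lost without any 1 WT library, and those of Gpi1 and Eno1 also without PRELP-/- replicate 2 or 3. The adjusted p was then 0.0814 to 0.0958 for Gapdh, 0.0581 to 0.133 for Gpi1 and 0.0650 to 0.133 for Eno1. Without PRELP-/- replicate 1, 10 glycolysis genes rose and 0 fell (55.6%), beside 22.2% of all genes called and 10.7% higher.

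Of the citric acid cycle, 4 of 18 genes rose and 0 fell in OMD-/- (22.2%), with Ogdh, a subunit of the oxoglutarate dehydrogenase complex, at 0.58 ± 0.12 (adjusted p 0.00515 by edgeR). Cs, the citrate synthase, was at 0.35 ± 0.09. Cs lost its call without WT replicate 3 or OMD-/- replicate 1 or 3 (0.0534 to 0.0682). Of 17 genes of fatty acid oxidation 2 rose, Cpt1a (0.47 ± 0.10), which admits fatty acids to mitochondria, and Hadha (0.34 ± 0.08). Cpt1a passed under 18 of 19 alternatives and Hadha under 17. Of 20 genes of the outer membrane and of import, 2 rose and 1 fell, the latter being Timm44 (-0.46 ± 0.10). Timm44 passed under 18 of 19 alternatives. Of the 9 tested hypoxia-responsive genes, 1 rose and 1 fell, and Vegfa, the vascular growth factor, fell by 0.995 ± 0.09 on the log2 scale in OMD-/- and by 1.08 ± 0.14 in PRELP-/- (adjusted p 4.06e-05 and 0.00292). Vegfa passed under all of 19 alternatives in OMD-/- and under 17 in PRELP-/-. The hypoxia-responsive gene that rose was Slc2a1, a glucose transporter, at 0.27 ± 0.08 (adjusted p 0.0326). That call was lost without any library but WT replicate 2 (0.0662 to 0.0972). With all 3 PRELP-/- libraries, none of these lists had a call there besides glycolysis, the partners and the hypoxia-responsive genes. Without PRELP-/- replicate 1, 3 of 18 citric acid cycle genes and 4 of 17 of fatty acid oxidation passed, all higher. Of the 20 of the outer membrane and import 2 rose and 1 fell, beside 22.2% of all genes called.

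Summed levels of cell type markers differed between the genotypes as well. The summed level of 15 urothelial markers was 15803 to 17322 CPM in WT, 18955 to 24953 CPM in OMD-/- and 21450 to 31833 CPM in PRELP-/-. Highest in each knockout was the same replicate 1 that was highest for the members. The 9 fibroblast markers summed to 8313 to 9510 CPM in WT and 17991 to 21724 CPM in OMD-/-, with 9750 CPM in PRELP-/- replicate 1 and 19533 to 19916 CPM in the other PRELP-/- libraries. Leukocyte markers reached 279 to 338 CPM in WT, 290 to 607 CPM in OMD-/- and 177 to 301 CPM in PRELP-/-. Endothelial markers reached 185 to 431, 493 to 574 and 329 to 561 CPM. Smooth muscle markers summed to 540 to 1721 CPM in WT, 667 to 1122 CPM in OMD-/- and 411 to 489 CPM in PRELP-/-, where their median log2 fold change was -1.30 and 0 of 11 tested passed. Skeletal muscle markers, whose fibres are rich in mitochondria, summed to 24.4 CPM at most. Of single markers in OMD-/-, 4 of 15 urothelial, 5 of 9 fibroblast and 7 of 10 leukocyte markers passed, all higher. There 0 of 7 endothelial and 0 of 11 smooth muscle markers passed, beside 29.4% of all genes. In PRELP-/- 1 of 15 urothelial and 2 of 9 fibroblast markers passed, all higher, beside 7.29% of all genes. Of leukocyte and endothelial markers 0 passed there. Of 5 tested skeletal muscle markers, 2 passed in OMD-/- and 1 in PRELP-/-. The part of these cell types in the levels of the members was not tested.

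Reads of near-identical copies may blur some members. The symbol pattern also matched 13 genes that are not protein-coding, of which 12 are processed pseudogenes. The pseudogene Atp5k-ps2 had 8.05 to 31.8 CPM and the transcript Ndufb1-ps 27.6 to 109 CPM, so reads of Atp5k or Atp5k-ps2 could have been counted on either. Of the members, 20 overlap an expressed gene (1 CPM or more) on the other strand.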

How the data were processed

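Poly(A)-selected RNA of 10 mouse bladder samples was sequenced from a strand-specific kit with molecular identifiers. The deposited files hold whole-number read counts per gene, which the authors made before deposit with featureCounts per the labels. The labels name STAR 2.5.2b as aligner and the file headers name HISAT2, and which was used is not settled here. The strand setting, the treatment of multi-mapping reads and the use of the identifiers are not given in the sources used here, nor is the reason for the 0 counts of mitochondrial genes. The authors' own DESeq2 comparisons were not used.

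All 55536 gene identifiers matched GENCODE vM21 (GRCm38). Samples were grouped by genotype label. Each pair of genotypes was compared with edgeR 4.0.16 in R 4.3.3 (TMM factors, filterByExpr, robust quasi-likelihood test, Benjamini-Hochberg adjustment over all tested genes, threshold 0.05). CPM used TMM-scaled library sizes, and TPM the joined exon length. Floors of 3 counts and other counting limits cover counting error only. Comparisons with WT share the WT libraries. Alternatives were other size factors, filters, DESeq2 1.42.0, limma 3.58.1 (voom with quality weights), all 10 libraries in one fit, the replicate number as a block, a Y chromosome covariate, a length offset, the subunits alone and leaving out each library. WT pairs alone were added after seeing the data. Scripts were tested on simulated data.

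The members and all lists were chosen with earlier results of these data known. Genes named with values were the 10 called members with the largest fold change in each comparison with WT, the 5 highest and 5 lowest by TPM, a list of core subunits, isoform pairs, undetected members and up to 3 called genes of each pathway list. Any other gene is said to be chosen after its values were seen. Some genes within this rule are counted but not reported here by name. Same-numbered PRELP-/- and OMD-/- libraries deviated together (r of 0.300, 0.179 and 0.143 across genes). The labels give no shared source, and 2 of 3 PRELP-/- and 1 of 3 OMD-/- libraries correlated best with their own number. A pairing of the knockouts is thus read from these same data alone. The block was fitted in every comparison. Between OMD-/- and WT, 2 of 3 and 1 of 3 libraries also correlated best with their own number, but r was 0.04, -0.04 and 0.02. Between PRELP-/- and WT it was 1 of 3 in each group, with r of -0.06, 0.13 and -0.10. A pairing of either knockout with WT is not shown.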

Additional observations from a re-analysis of the deposited data

Results flagged for a closer look

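Among 43 member values tested for a WT library that stands far from the others, 1 did so. Atp5g3, a gene for subunit c of ATP synthase, had 198 CPM in WT replicate 4 and 171 to 175 CPM in the other 3 WT libraries. The gap to the nearest library made 0.862 of the range, which is above Dixon's critical value at the 95% level. A test at this level marks some values by chance alone among so many.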

How the results depend on the processing

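In OMD-/- against WT (10 members higher, 4 lower), the counts higher and lower were 1 and 1 with all 10 libraries in one fit, 3 and 3 with the replicate number as a block, 18 and 7 with the Y chromosome covariate, 11 and 15 with limma-voom, 7 and 2 against WT replicates 1 and 2, 12 and 12 against WT replicates 3 and 4, and 10 and 2 for subunits alone. Leaving out 1 library gave 6 to 10 higher (6 without WT replicate 3 or OMD-/- replicate 1) and 1 to 4 lower (1 without OMD-/- replicate 3, and 2 without WT replicate 1, 3 or 4 or OMD-/- replicate 2). The median of 0.06 became -0.07 with limma-voom, -0.02 against WT replicates 3 and 4 and -0.05 without OMD-/- replicate 1. Other size factors and the 1 CPM filter left the counts at 10 and 4. The share of all genes called was 14.7% with all 10 libraries in one fit, 21.2% with the block and 37.9% with the Y covariate. It was 43.4% with limma-voom, 26.3% against WT replicates 1 and 2, and 39.8% against WT replicates 3 and 4. Leaving out 1 library gave 17.2 to 29.5%.

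In PRELP-/- against WT (0 and 0), members higher were 16 with DESeq2, 19 with limma-voom, 7 with all libraries in one fit, 1 with the Y covariate and 5 with the length offset, and limma-voom called 9 lower. In these fits DESeq2, run without the filter on low counts, called 8.19% of all genes, barely expressed ones included, and limma-voom 42.1%. All libraries in one fit called 14.7%, the Y covariate 6.13% and the length offset 13.5%. Leaving out 1 library gave 0 to 14 higher and 0 to 1 lower. The highest was without PRELP-/- replicate 1, where 22.2% of all genes were called. The median of 0.53 was 0.0495 with limma-voom and 0.0882 to 0.711 on leaving out 1 library. In PRELP-/- against OMD-/-, limma-voom called 2 members higher, beside 6.4% of all genes. The median of 0.51 was -0.28 with the Y covariate and 0.0298 to 0.704 on leaving out 1 library. The block lowered the calls over all genes from 4899 to 3472 in OMD-/- and from 1209 to 111 in PRELP-/-, where the replicates share only a number with WT. In neither comparison did every library correlate best with its own number. Between the knockouts it raised them from 1 to 43, with no member called.

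Signs turned in PRELP-/- against WT with limma-voom for Ndufab1 (-0.40), Ndufb2 (-0.45), Uqcr10 (-0.28), Cox7b (-0.47), Ndufa4 (-0.45), Atp5l (-0.42), Esrra (-0.47) and Mrpl12 (-0.45). On leaving out 1 library they ran from -0.36 to 0.27 for Ndufab1 and from -0.44 to 0.23 for Esrra, both negative without PRELP-/- replicate 1. Mean summed TPM by the longest transcript was 18961 in WT and 18194 in OMD-/-, and mean summed CPM of plain totals was 9039 in WT. The causes were not tested. Depth was similar over the PRELP-/- libraries, and over all genes 1209 calls were made with PRELP-/- replicate 1 and 3807 without it.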
